A study of Mus musculus with 24 samples.

Results

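RNA from mouse entorhinal cortex 3 days after activation of the silencing channel GlyCl was compared with RNA from the same region 2 days after activation. The comparison used 12 of the 24 libraries of the series, the 6 labelled 3DPI (Day 3) and the 6 labelled 2DPI (Day 2), and every gene that passed a filter on low counts, 16767 of the 55417 in the deposited count table. Day 3, Day 2 and Day 1 each held 3 females and 3 males, and the vehicle group held 4 females and 2 males. Every mouse, vehicle included, was 2 to 4 months old, had the genotype label tg/tg and came from a cross of Nop-tTA Line S with TRE-GlyCl-YFP Line 9531, so the transgenes were present in all 4 groups. The labels do not name the activating agent or its dose. Nor do they say that each library came from a separate mouse, so the p-values may measure only the spread between these libraries. Day 1 and vehicle libraries entered the fit to share its estimate of the spread, and their values are given only where they place the last day in the time course.

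GlyCl is a chloride channel derived from the glycine receptor, and opening it holds neurons silent. The Nop (neuropsin) promoter drives the tetracycline transactivator mostly in superficial neurons of the entorhinal cortex, and YFP marks the cells that carry the channel. Microglia, the resident immune cells of the brain, watch over synapses and answer neuronal damage by dividing and by secreting chemokines. They and astrocytes also answer type I interferon, whose receptor signals to a short promoter sequence, the interferon-stimulated response element (ISRE), ahead of genes such as Ifit1 and Isg15. The whole dissected tissue was sequenced, so fewer cells of a type and less RNA per cell cannot be told apart.

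Library totals were 16.6 to 20.8 M reads at Day 3 and 16.7 to 20.1 M at Day 2, and their means of 19.5 ± 1.52 M and 18.4 ± 1.13 M (SD, n = 6 each) gave an exact permutation p of 0.182 (two-sided, smallest possible 0.00216). Levels are given as CPM, the reads of a gene scaled to the total of its library. Ttr, the main transcript of the choroid plexus, was abundant in 8 of the 24 libraries (562 to 1170 CPM), among them Day 3 libraries 2, 3 and 6 and Day 2 libraries 4 and 6. The remaining 16 held 8.28 to 25.9 CPM. The 11 choroid plexus markers summed to 177, 590 and 1810 CPM (lowest, median, highest) at Day 3 and to 171, 202 and 1900 CPM at Day 2. The part of this admixed tissue in the results was not tested, and values without the 8 libraries are given where they end a call. Leaving them out removes 3 of 6 Day 3 and 2 of 6 Day 2 libraries, so that fit rests on smaller groups. A call lost there cannot be assigned to the tissue or to the group size.

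At Day 3 relative to Day 2, the chemokines Cxcl10, Ccl12 and Ccl9, 6 interferon response genes, the microglial genes Itgax and Ch25h, the proliferation marker Mki67 and the astrocyte filament Gfap were higher, and the transgene transcript EYFP was lower. By edgeR's quasi-likelihood test, 22 of the 16767 genes were called at an adjusted p under 0.05, a background of 0.131%. The rises numbered 20 (0.119% of genes) and the falls 2 (0.0119%). Cxcl10 rose most, with a log2 fold change of 3.51 ± 0.42 (SE, 6 libraries a day, adjusted p = 5.48e-05), followed by Ccl12 at 3.11 ± 0.40 (adjusted p = 6.67e-05). The falls were EYFP, by 0.72 ± 0.11, and Glra1, by 0.71 ± 0.13. Over all genes the median log2 fold change was 0.001, and 50.3% lay above 0.

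**Figure D1:**
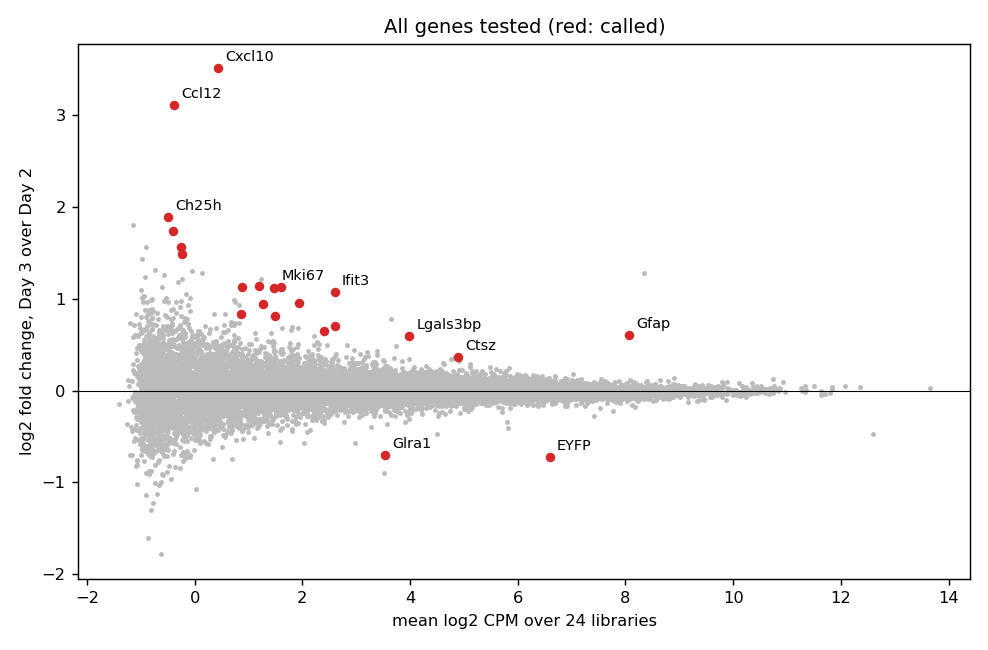
The log2 fold change of Day 3 over Day 2 (vertical axis) against mean log2 CPM over the 24 libraries (horizontal axis) for each of the 16767 genes tested, with the 22 called genes in red. Cxcl10 and Ccl12 lie highest, EYFP and Glra1 are the red points below 0, and the grey cloud is centred at 0.

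For 15 of the 22 called genes, 14 rises and 1 fall, the CPM of Day 3 and Day 2 libraries did not overlap. Over all genes 47 (0.28%) did not overlap with Day 3 higher and 8 (0.0477%) with Day 3 lower. Leaving out Day 3 library 1, 2 or 6 left 10, 12 and 13 calls, and without the 8 Ttr-rich libraries 6 genes were called, 5 of them from the 22. With the leading digits of the sample number in the titles as a factor, 8 were called, 7 of them from the 22. Vehicle library 1 and Day 1 library 1, whose leading digits differ from all others, were joined to the next number for that factor, and the labels do not say what it marks. In each of these fits all 22 log2 fold changes kept their sign.

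**Figure D2:**
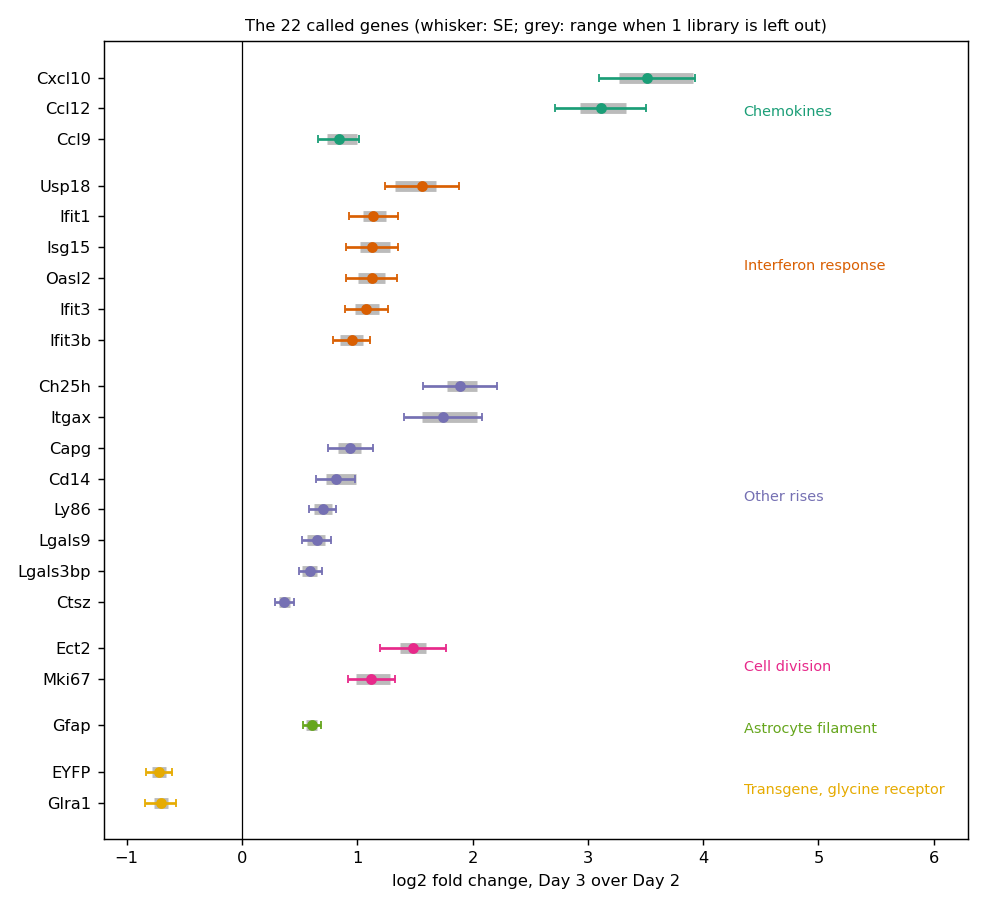
The log2 fold change of Day 3 over Day 2 (horizontal axis) of the 22 called genes, arranged by role, with SE whiskers and grey bars for the range when each Day 3 or Day 2 library was left out in turn. The chemokines Cxcl10 and Ccl12 stand apart on the right, at 3.51 and 3.11, and no grey bar reaches 0.

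Chemokines, the secreted proteins that direct the movement of immune cells, held the largest rises. Cxcl10 (ENSMUSG00000034855.14), an interferon-induced chemokine that attracts T cells, stood at 2.11, 4.73 and 5.72 CPM (lowest, median, highest) in Day 3 libraries, against 0, 0.354 and 0.826 CPM in Day 2 libraries. Its reads summed to 508 over the 6 Day 3 libraries and to 41 over the 6 Day 2 libraries. Ccl12, a mouse chemokine that attracts monocytes, stood at 0.902, 2.07 and 2.75 CPM at Day 3 and at 0.0599, 0.209 and 0.373 CPM at Day 2, from 238 and 25 reads. For both genes the lowest Day 3 library lay above the highest Day 2 library, and both calls held in all 12 fits that left out a library. Both also held without the Ttr-rich libraries, at 3.22 (adjusted p = 0.00435) for Cxcl10 and 3.24 (adjusted p = 0.00312) for Ccl12. Ccl9, a chemokine of myeloid cells, rose by 0.84 ± 0.18 (adjusted p = 0.0498), to a median of 2.78 CPM at Day 3 against 1.54 CPM at Day 2. Its groups overlapped, with 5 of 6 Day 3 libraries above the Day 2 range. Its call was lost in 10 of the 12 fits, remaining without Day 3 library 5 or Day 2 library 6, with an adjusted p of up to 0.150. It was also lost without the Ttr-rich libraries (0.94, adjusted p = 0.456).

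Of 9 chemokines tested, 3 rose, 7 had log2 fold changes above 0, and the median was 0.837. Over all genes 0.119% rose and 50.3% lay above 0. Ccl3 and Ccl4, chemokines made by microglia, stood at 1.30 ± 0.30 and 1.31 ± 0.30 and did not pass by edgeR (adjusted p = 0.0838 and 0.0685), while DESeq2 called both (adjusted p = 0.0146 and 0.0363). Ccl3 had 1.73, 2.23 and 2.53 CPM at Day 3 and 0.5, 0.786 and 1.64 CPM at Day 2, without overlap. Cx3cl1, the neuronal chemokine that microglia sense through Cx3cr1, was at -0.02 ± 0.04, with 834 CPM at Day 3 and 839 CPM at Day 2 on average. Other chemokines were too low to test: Ccl2 had 39 reads in all at Day 3 and 11 at Day 2, Ccl5 had 16 and 5, and Cxcl2 had 0 on both days. Whether the counting split reads between similar chemokine genes was not tested, so the single values of Ccl3, Ccl4, Ccl9 and Ccl12 could be affected.

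Interferon response genes formed the list with the most calls, and also the list with the most genes tested. Of 29 tested, 6 rose, against 0.119% of all genes. Log2 fold changes lay above 0 for 28 of them, against 50.3% of all genes, and the median was 0.684. An unadjusted p under 0.05 with Day 3 higher was reached by 23 of the 29, against 2.89% of all genes. The summed level of the 29 genes was 140, 169 and 195 CPM (lowest, median, highest) in Day 3 libraries and 113, 127 and 135 CPM in Day 2 libraries, so the ranges did not meet.

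Ifit3, a gene of the same family as Ifit1, stood at 5.6, 10.2 and 12.7 CPM at Day 3 and at 3.36, 4.56 and 6.22 CPM at Day 2. It rose by 1.08 ± 0.19 (adjusted p = 0.00529). Of the Day 3 libraries, 5 of 6 lay above all Day 2 libraries. Ifit3b, its near-identical neighbour, rose by 0.95 ± 0.16 (adjusted p = 0.00529) with no overlap, and the split of reads between the 2 copies is uncertain. Ifit1, a sensor of viral RNA caps, stood at 2.54, 4.15 and 5.28 CPM at Day 3 and at 1.39, 1.76 and 2.29 CPM at Day 2, and rose by 1.14 ± 0.21 (adjusted p = 0.0116). Every Day 3 library exceeded every Day 2 library for Ifit1. Isg15, a ubiquitin-like protein joined to other proteins after interferon, rose by 1.13 ± 0.23 (adjusted p = 0.0259), from 384 reads at Day 3 against 161 at Day 2. Day 3 library 3 held 1.44 CPM of Isg15, inside the Day 2 range of 0.993 to 2.09 CPM, while the other 5 Day 3 libraries held 3.36 to 4.02 CPM. Oasl2, a relative of the antiviral oligoadenylate synthetases, rose by 1.12 ± 0.22 (adjusted p = 0.0209), and Usp18, which removes Isg15 from proteins and restrains the interferon receptor, by 1.56 ± 0.32 (adjusted p = 0.0394). Usp18 rested on few reads, 173 at Day 3 and 55 at Day 2.

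Ifit3 and Ifit3b were called in all 12 fits that left out a library. The call of Ifit1 was lost without Day 3 library 2 (adjusted p = 0.0529), that of Oasl2 without Day 3 library 1, 2, 5 or 6 or Day 2 library 3, 4 or 5 (up to 0.0890), and those of Isg15 and Usp18 in 9 fits each (up to 0.101 and 0.227), Isg15 keeping its call without Day 3 library 3 or Day 2 library 1 or 4 and Usp18 without Day 3 library 3 or Day 2 library 3 or 6. Without the Ttr-rich libraries none of the 6 was called by edgeR, in a fit that lacked 3 Day 3 and 2 Day 2 libraries. The log2 fold changes there were 1.16 for Ifit3 (adjusted p = 0.0827), 0.94 for Ifit3b (0.256), 0.84 for Ifit1 (0.584), 1.42 for Isg15 (0.0857), 1.17 for Oasl2 (0.22) and 1.34 for Usp18 (0.456).

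Further members lay just outside the threshold, and are named after their values were seen. Ddx58, the gene of the RNA sensor RIG-I, was at 0.60 ± 0.13 (adjusted p = 0.0512), the antiviral gene Rsad2 at 0.93 ± 0.20 (adjusted p = 0.0577) and Irf7, a transcription factor that amplifies interferon output, at 0.84 ± 0.19 (adjusted p = 0.0774). DESeq2 called all of these. The 6 genes tested for interferon receptors and their kinases had 0 calls by edgeR, DESeq2 and limma voom and 1 member with an unadjusted p under 0.05, and the receptor subunits Ifnar1 and Ifnar2 stood at 0.09 ± 0.04 and 0.08 ± 0.09. No reads of Ifnb1, Ifna2 or Ifna4 were counted in any library of the 4 groups, and Ifng had 0 reads at Day 3 and at Day 2. Other type I interferon genes were not in the list and were not looked at.

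Promoter windows were read for the rises because the ISRE is written in them. RefSeq windows of GRCm38.p6, 250 bases before to 50 after the gene start, were given for 18 of the 20 rises, and Usp18, Cd14 and, among the falls, Glra1 and EYFP were not matched. The ISRE letters, a pair of GAAA with any 2 bases between, were searched on both strands and found in 6 of the 18 (33.3%), against 1079 of 27025 genes of the whole table (3.99%). The 6 genes were Cxcl10, Ifit1, Ifit3, Ifit3b, Isg15 and Lgals9. The window of Oasl2, also a called interferon response gene, held 0 matches. Ifit3 and Ifit3b, counted separately, carried the same 2 matched sequences, and 1 of the 2 matches of Lgals9 lay after the gene start. The windows of Ifit1, Ifit3, Isg15 and Cxcl10 are shown because they carry the letters ahead of the interferon response genes and the chemokine described above; each is written 5′ to 3′ on the gene's strand, and capitals mark the matches.
Ifit1, chr19:34640639-34640938 (+): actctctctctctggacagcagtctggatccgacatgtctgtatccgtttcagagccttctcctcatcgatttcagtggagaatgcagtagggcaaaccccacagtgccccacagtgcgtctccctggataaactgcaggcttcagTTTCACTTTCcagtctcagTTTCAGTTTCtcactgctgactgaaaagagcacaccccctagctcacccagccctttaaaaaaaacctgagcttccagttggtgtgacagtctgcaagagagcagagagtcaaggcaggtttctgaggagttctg
Ifit3, chr19:34583279-34583578 (+): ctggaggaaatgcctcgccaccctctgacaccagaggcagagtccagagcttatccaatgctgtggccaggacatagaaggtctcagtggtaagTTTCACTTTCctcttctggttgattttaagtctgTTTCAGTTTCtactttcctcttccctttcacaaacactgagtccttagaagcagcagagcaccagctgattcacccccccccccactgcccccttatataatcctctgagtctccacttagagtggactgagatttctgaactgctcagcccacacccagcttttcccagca
Isg15, chr4:156200769-156201068 (-): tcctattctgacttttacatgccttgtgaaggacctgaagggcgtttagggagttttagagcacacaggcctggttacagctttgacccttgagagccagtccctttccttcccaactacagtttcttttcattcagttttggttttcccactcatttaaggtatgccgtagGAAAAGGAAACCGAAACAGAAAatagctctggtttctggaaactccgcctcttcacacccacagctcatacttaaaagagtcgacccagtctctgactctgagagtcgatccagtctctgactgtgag
Cxcl10, chr5:92348840-92349139 (-): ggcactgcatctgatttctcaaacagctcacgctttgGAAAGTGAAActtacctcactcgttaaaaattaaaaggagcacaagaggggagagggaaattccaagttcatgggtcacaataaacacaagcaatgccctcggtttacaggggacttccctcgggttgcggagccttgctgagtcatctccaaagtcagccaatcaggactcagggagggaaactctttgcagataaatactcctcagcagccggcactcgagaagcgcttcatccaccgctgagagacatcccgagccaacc
Ifit1 held matches 95 to 104 and 76 to 85 bases before its start, and Ifit3 147 to 156 and 113 to 122 bases before its own. Both carried the letters on the opposite strand, as TTTCACTTTC and then TTTCAGTTTC. Isg15 held 3 matches that overlap each other, between 57 and 78 bases before the start, and Cxcl10 had a single match 204 to 213 bases before it. A narrow form of the NF-kB site, GGGA, any base and then TTTCC, was in 0 of the 18 windows and in 0.466% of all genes' windows. Looser forms of that site were not searched. The Cxcl10 window shown holds the similar letters GGGAAATTCC and GGGGACTTCC, which the narrow form does not match, so absence of NF-kB sites cannot be read from this count. The cell cycle letters TTTGAA (CHR) were in 4 of 18 (22.2%) against 20.2% of all, and TTTNGCGC (E2F) in 0 of 18 against 1.57%. These matches describe the letters of the windows only.

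**Figure D3:**
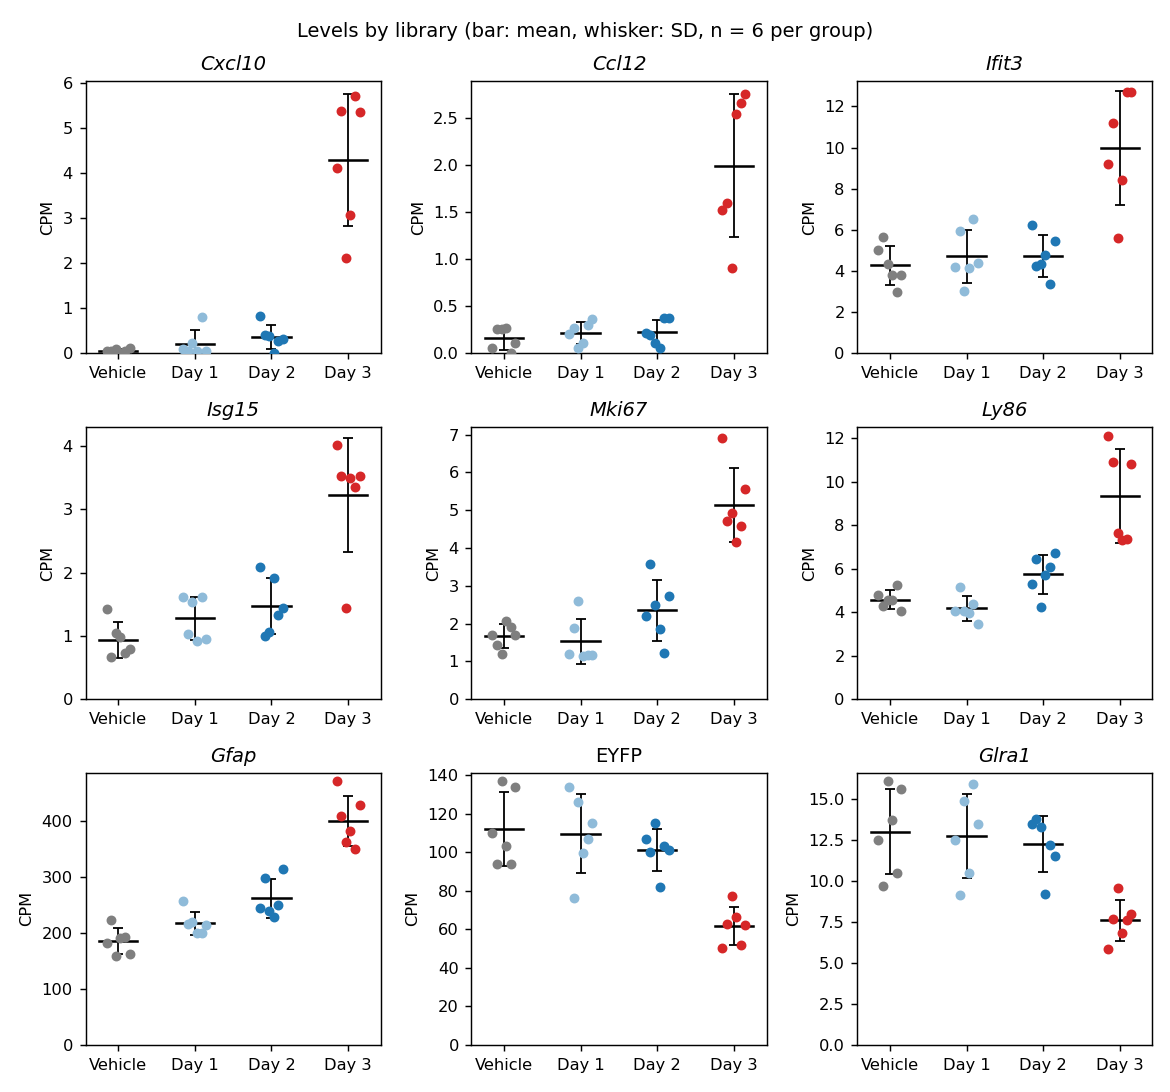
CPM (vertical axis, from 0) of 9 genes in each library of the Vehicle, Day 1, Day 2 and Day 3 groups (horizontal axis, points), with the mean as a bar and the SD as a whisker, n = 6 per group. Cxcl10 and Ccl12 lie near 0 until Day 2 and reach up to 5.72 and 2.75 CPM at Day 3, the mean of Gfap is higher on each later day, and EYFP and Glra1 have their lowest means at Day 3.

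A further 8 rises were Itgax, Ch25h, Ctsz, Ly86, Cd14, Capg, Lgals9 and Lgals3bp, of which the first 3 belong to the list of activated microglia genes, Ly86 and Cd14 to that of pattern receptors, and the other 3 to no list. Itgax, the integrin CD11c carried by reactive microglia and dendritic cells, stood at 1.18, 1.46 and 1.68 CPM at Day 3 and at 0.16, 0.38 and 0.722 CPM at Day 2, and rose by 1.74 ± 0.34 (adjusted p = 0.0209). Ch25h, the enzyme that makes 25-hydroxycholesterol, stood at 0.691, 1.57 and 1.81 CPM at Day 3 and at 0.22, 0.39 and 0.533 CPM at Day 2, and rose by 1.89 ± 0.32 (adjusted p = 0.00529). Neither gene's groups overlapped. Ly86, the partner of the Toll-like receptor relative Cd180, rose by 0.70 ± 0.12 (adjusted p = 0.00529), with 7.34, 9.22 and 12.1 CPM at Day 3 and 4.22, 5.88 and 6.72 CPM at Day 2, again without overlap. Cd14, the co-receptor for bacterial lipopolysaccharide, rose by 0.81 ± 0.17 (adjusted p = 0.0436), and 5 of 6 Day 3 libraries lay above the Day 2 range. Capg, an actin-capping protein of macrophages, rose by 0.94 ± 0.19 (adjusted p = 0.0332). Ctsz, a lysosomal protease, had the smallest rise, 0.37 ± 0.08 (adjusted p = 0.0498), with 31.5 to 44.4 CPM at Day 3 and 23.2 to 34.8 CPM at Day 2. The galectin Lgals9 rose by 0.65 ± 0.13 (adjusted p = 0.0209), and the galectin-binding protein Lgals3bp by 0.59 ± 0.10 (adjusted p = 0.00529), both without overlap.

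Among these 8, Ch25h, Ly86 and Lgals3bp were called in all 12 fits that left out a library. Itgax lost its call without Day 3 library 1 or 6 or Day 2 library 4, 5 or 6 (adjusted p up to 0.0976), and Lgals9 without Day 3 library 1, 2 or 6 or Day 2 library 3, 4 or 5 (up to 0.113). Capg lost its call without Day 3 library 1, 2 or 3 or Day 2 library 2, 3, 4, 5 or 6 (up to 0.152). Cd14 was called only without Day 3 library 3 or Day 2 library 5, and Ctsz only without Day 3 library 5 or Day 2 library 5 or 6, with an adjusted p of up to 0.161 and 0.206 otherwise. Without the Ttr-rich libraries none of the 8 was called by edgeR, with log2 fold changes of 1.55 for Ch25h (adjusted p = 0.558), 1.16 for Itgax (0.577), 0.61 for Ly86 (0.456), 0.87 for Cd14 (0.456), 0.88 for Capg (0.55), 0.37 for Ctsz (0.525), 0.54 for Lgals9 (0.563) and 0.54 for Lgals3bp (0.417).

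By list, 3 of 23 activated microglia genes rose (Ch25h, Itgax and Ctsz), 22 had log2 fold changes above 0, and the median was 0.248. Over all genes 0.119% rose, 50.3% lay above 0 and 2.89% were higher at an unadjusted p under 0.05 by edgeR. Trem2, a lipid-sensing receptor of microglia, was at 0.25 ± 0.08 and did not pass (adjusted p = 0.671), with 14.3 CPM at Day 3 and 12 CPM at Day 2 on average. Cd52, a small surface protein of leukocytes and reactive microglia named after its value was seen, was at 1.28 ± 0.29 (adjusted p = 0.0685; DESeq2 adjusted p = 0.015). Of 14 homeostatic microglia genes, which mark microglia at rest, edgeR, DESeq2 and limma voom called 0, 6 had an unadjusted p under 0.05 and the median was 0.137. The fractalkine receptor Cx3cr1 was at 0.16 ± 0.06 (adjusted p = 0.923) and Aif1, the microglial protein IBA1, at 0.21 ± 0.10 (adjusted p = 0.999). The summed level of the 14 was 399, 444 and 486 CPM (lowest, median, highest) at Day 3 and 363, 395 and 442 CPM at Day 2, so the groups overlapped.

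Of 15 genes for Fc, Toll-like and pattern receptors, 2 rose (Ly86 and Cd14) and the median was 0.20. The shares over all genes, for this and the next lists, were 0.119% called higher and 50.3% above 0. At an unadjusted p under 0.05 by edgeR 2.89% of all genes were higher. Of 14 complement genes, which tag synapses and debris for removal, edgeR called 0, 4 had an unadjusted p under 0.05 and DESeq2 called C4b (0.34 ± 0.08 by edgeR, adjusted p = 0.152; DESeq2 adjusted p = 0.04). C4b had 33.3, 35.5 and 38.0 CPM at Day 3 and 25.2, 27.7 and 31.3 CPM at Day 2, without overlap. Of 12 genes of MHC class I presentation, which shows peptides to T cells, edgeR, DESeq2 and limma voom called 0 and 5 had an unadjusted p under 0.05, and all 12 log2 fold changes were above 0, with a median of 0.21 and the peptide transporter Tap1 at 0.46 ± 0.15 (adjusted p = 0.671). Among 14 cytokine and NF-kB feedback genes 0 were called by edgeR, DESeq2 and limma voom and 4 had an unadjusted p under 0.05. The cytokine Lif, at 1.01 ± 0.25 (adjusted p = 0.152), had 0.782 to 1.57 CPM at Day 3 and 0.299 to 0.695 CPM at Day 2. Its means were 0.771, 0.906, 0.537 and 1.11 CPM in vehicle, Day 1, Day 2 and Day 3, lowest at Day 2. Lif was not called at Day 3 over vehicle (0.55, adjusted p = 0.802) or over Day 1 (0.30, adjusted p = 0.793).

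Most markers of leukocytes that enter from the blood were too low to test. Of 13 listed, Cd4 and Trbc2 were tested, and neither was called by edgeR, DESeq2 or limma voom or had an unadjusted p under 0.05. Together they held 3.48, 4.45 and 5.33 CPM (lowest, median, highest) at Day 3 and 3.62, 4.52 and 5.15 CPM at Day 2. The T cell genes Cd3e and Cd8a had 2 and 1 reads in all at Day 3 and 3 and 7 reads at Day 2. The neutrophil gene S100a8 had 5 reads at Day 3 and 9 at Day 2. The monocyte receptor Ccr2 had 46 reads at Day 3 and 21 at Day 2, against 43 in vehicle.

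**Figure D4:**
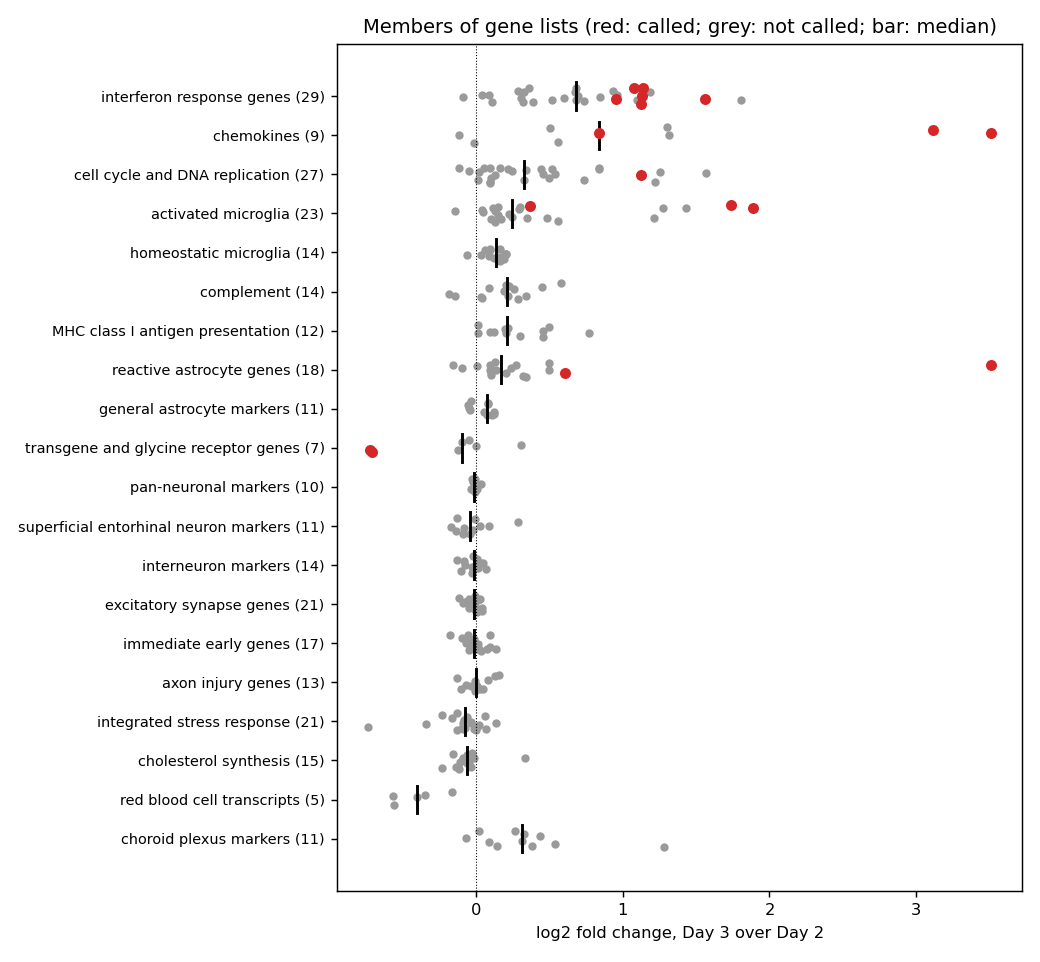
The log2 fold change of Day 3 over Day 2 (horizontal axis) of each tested member of 20 gene lists (rows, tested members in parentheses), red where called and grey where not, with a black bar at each list's median. The chemokine, interferon response and cell cycle lists have medians of 0.837, 0.684 and 0.328, while the pan-neuronal list is packed around 0.

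Of the genes that act in cell division, Mki67 and Ect2 rose. Mki67, which coats the chromosomes of cycling cells, stood at 4.17, 4.82 and 6.91 CPM at Day 3 and at 1.23, 2.35 and 3.57 CPM at Day 2, and rose by 1.12 ± 0.21 (adjusted p = 0.0116). Ect2, which sets up the cleavage furrow between daughter cells, stood at 0.96, 1.23 and 1.62 CPM at Day 3 and at 0.275, 0.432 and 0.596 CPM at Day 2, and rose by 1.48 ± 0.28 (adjusted p = 0.0182). All 6 Day 3 libraries lay above the Day 2 range for both genes. Ect2 averaged 0.484, 0.773, 0.44 and 1.25 CPM in vehicle, Day 1, Day 2 and Day 3, so its Day 2 mean was the lowest. Its step from Day 1 to Day 2 was -0.78 ± 0.30 (edgeR unadjusted p = 0.0144, not called). Of the 22 called genes, 21 were also called at Day 3 over Day 1, and Ect2 was the exception (0.70 ± 0.26, adjusted p = 0.344). Mki67 lost its call without Day 3 library 1 (adjusted p = 0.0623), and Ect2 without Day 3 library 1 or 2 or Day 2 library 1 or 5 (up to 0.0716). Without the Ttr-rich libraries the values were 1.09 for Mki67 (adjusted p = 0.456) and 1.62 for Ect2 (adjusted p = 0.417).

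Ect2 was in no list. Of the 27 cell cycle and DNA replication genes tested, Mki67 rose, 25 had log2 fold changes above 0, 12 had an unadjusted p under 0.05, and the median was 0.328. Over all genes 0.119% rose, 50.3% lay above 0 and 2.89% were higher at an unadjusted p under 0.05 by edgeR. Top2a, the topoisomerase that untangles replicated DNA, was at 1.22 ± 0.27 (adjusted p = 0.0622) with no overlap, 3.43 to 5.68 CPM at Day 3 against 1.02 to 3.38 CPM at Day 2, and was called by DESeq2 and by limma voom (adjusted p = 0.0063 and 0.0106). The 27 genes summed to 179, 188 and 204 CPM at Day 3 and to 156, 166 and 181 CPM at Day 2, ranges that met at their edges. Of 22 matched promoters of this list, 6 (27.3%) held the E2F letters and 8 (36.4%) the CHR letters. Cell division itself was not measured, and bulk tissue does not tell which cells held these transcripts. The 11 genes of oligodendrocyte precursors, cells that can divide, had 0 calls by edgeR, DESeq2 and limma voom and 3 with an unadjusted p under 0.05. Their median was 0.111, with the lineage factor Sox10 at 0.17 ± 0.07 (adjusted p = 0.959).

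Gfap (ENSMUSG00000020932.15), the intermediate filament of astrocytes that thickens in reactive cells, stood at 350, 395 and 470 CPM at Day 3 and at 228, 247 and 313 CPM at Day 2. It rose by 0.61 ± 0.08 (adjusted p = 6.67e-05), every Day 3 library lay above every Day 2 library, and the call held in all 12 fits that left out a library and without the Ttr-rich libraries (0.56, adjusted p = 0.0337). Of 18 reactive astrocyte genes, 2 rose, Gfap and Cxcl10, the second of which microglia also make, and the median was 0.172. Over all genes 0.119% rose. Of 11 general astrocyte markers, 0 were called by edgeR, DESeq2 and limma voom, 0 had an unadjusted p under 0.05 and the median was 0.072. The water channel Aqp4 was at 0.12 ± 0.06 (adjusted p = 0.999), with 138 CPM at Day 3 and 127 CPM at Day 2 on average. The glutamate transporter Slc1a3 was at 0.07 ± 0.05 (adjusted p = 0.999).

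Ch25h was the 1 member called among 11 genes of oxysterol handling and cholesterol efflux, whose median was 0.116, against 0.119% of all genes called higher. The cholesterol-esterifying enzyme Lcat was at 0.20 ± 0.08 (adjusted p = 0.957). Oxysterols are known to restrain cholesterol synthesis, and a link between Ch25h and the genes of that pathway was not tested here. Of 15 cholesterol synthesis and uptake genes, 0 were called by edgeR, DESeq2 and limma voom, 4 were lower at an unadjusted p under 0.05 (2.06% of all genes), 1 had a log2 fold change above 0 and the median was -0.061.

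The transgene transcript fell. EYFP, the fluorescent tag of the channel, stood at 50.4, 62.5 and 77.4 CPM at Day 3 and at 81.8, 102 and 115 CPM at Day 2, with no overlap, and fell by 0.72 ± 0.11 on the log2 scale (adjusted p = 0.00236). Glra1 (ENSMUSG00000000263.16), the gene of the glycine receptor alpha subunit, stood at 5.83, 7.68 and 9.57 CPM at Day 3 and at 9.22, 12.7 and 13.8 CPM at Day 2, and fell by 0.71 ± 0.13 (adjusted p = 0.0182). The groups of Glra1 met at Day 2 library 4, with 5 of 6 Day 3 libraries below the Day 2 range. Whether its reads came from the mouse gene or from the channel transgene, which is derived from that receptor, was not tested. EYFP was called in all 12 fits that left out a library, and Glra1 lost its call without Day 3 library 1 or 6 or Day 2 library 2 (adjusted p up to 0.0716). Both were called without the Ttr-rich libraries, at -0.90 for EYFP (adjusted p = 0.00312) and -0.95 for Glra1 (adjusted p = 0.0121). Neither was called in the test against a 1.2-fold change.

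Other glycine receptor genes did not pass. The alpha subunits Glra2 and Glra3 were at -0.09 ± 0.09 and -0.13 ± 0.11, the beta subunit Glrb, with 198 CPM at Day 3 and 203 CPM at Day 2 on average, at -0.05 ± 0.05, and the receptor scaffold Gphn at 0.00 ± 0.04 (adjusted p = 0.999 for the subunits and 1 for Gphn). Klk8, the gene of neuropsin whose promoter drives the transactivator, was at 0.30 ± 0.20 (adjusted p = 0.999).

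No list of neuronal markers had a called member. Of 10 pan-neuronal markers, 0 were called and 0 had an unadjusted p under 0.05, with a median of -0.017, and their summed level was 7350, 7450 and 7700 CPM at Day 3 and 7320, 7500 and 7680 CPM at Day 2. The 11 superficial entorhinal neuron markers had a median of -0.044 and also 0 calls and 0 with an unadjusted p under 0.05. Among them the secreted glycoprotein Reln was at -0.08 ± 0.07, the calcium buffer Calb1 at 0.03 ± 0.05 and the transcription factor Cux2 at -0.13 ± 0.07 (adjusted p = 0.999 each). The 14 interneuron markers had a median of -0.014 and 1 member lower at an unadjusted p under 0.05, with the peptide Sst at 0.04 ± 0.05, and the 21 excitatory synapse genes a median of -0.015 and likewise 1 such member. The 11 deep cortical neuron markers all had log2 fold changes above 0, with a median of 0.067, 0 calls by edgeR and 1 member higher at an unadjusted p under 0.05. Of all genes 50.3% lay above 0 and 2.89% were higher at that unadjusted p. Of 8 dentate and CA1 markers, which mark the neighbouring hippocampus, 7 had log2 fold changes above 0 and the median was 0.237, with 0 calls by edgeR and 1 member higher at an unadjusted p under 0.05. DESeq2 and limma voom called no member of these lists either.

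No immediate early gene or late activity-regulated gene was called by edgeR between the 2 days. Among 17 immediate early genes, the first to respond to neuronal firing, 0 were called by edgeR, DESeq2 and limma voom and 0 had an unadjusted p under 0.05. Egr3 was at 0.03 ± 0.12, with 168, 203 and 236 CPM at Day 3 and 147, 199 and 226 CPM at Day 2. Fos and Arc varied more between libraries, at 0.07 ± 0.39 and -0.01 ± 0.43, so a difference in them could have been missed. Bdnf, a neurotrophin induced later, was at 0.02 ± 0.08 (adjusted p = 0.999 for Egr3, Fos, Arc and Bdnf). The 14 late activity-regulated genes had 0 calls by edgeR, 1 member lower at an unadjusted p under 0.05 and a median of -0.007. The 13 axon injury genes had 0 calls by the 3 tools, 0 with an unadjusted p under 0.05 and a median of 0.001, with the injury-induced factor Atf3 at 0.13 ± 0.25 (adjusted p = 0.999). Genes of the integrated stress response, by which cells slow protein synthesis, had 0 of 21 called by the 3 tools, 1 higher and 3 lower at an unadjusted p under 0.05 and a median of -0.077, with the pseudokinase Trib3 at -0.73 ± 0.30 (adjusted p = 0.957).

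Markers of other tissue in the dissection did not pass in the main fit. Without the filter on low counts, Ttr and the red blood cell transcript Hbb-bt were among the genes called. The 11 choroid plexus markers had 0 calls by the 3 tools, 0 with an unadjusted p under 0.05 and a median of 0.316, with Ttr at 1.28 ± 1.76 (adjusted p = 0.999; exact permutation p of its CPM 0.952, n = 6 per group). The 5 red blood cell transcripts, which follow blood left in the vessels, had 0 calls by the 3 tools, 1 lower at an unadjusted p under 0.05 and a median of -0.404. They summed to 94.2, 128 and 167 CPM at Day 3 and to 68.4, 138 and 309 CPM at Day 2. All 12 myelin genes had log2 fold changes above 0, against 50.3% of all genes. Their median was 0.075, with 0 calls by the 3 tools and 0 with an unadjusted p under 0.05.

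The last day was set beside the earlier ones, which share libraries with it. The step from Day 1 to Day 2 had 2 genes called (0.0119% of genes), the chemokine Ccl4 at 2.58 ± 0.45 (adjusted p = 0.0323) and the metalloproteinase Mmp15 at 0.40 ± 0.07 (adjusted p = 0.0323). Against vehicle, 103 genes (0.614%) were called at Day 3 and 11 (0.0656%) at Day 2. Cxcl10 was at 2.48 at Day 2 over vehicle (adjusted p = 0.689) and at 6.0 at Day 3 over vehicle (adjusted p = 5.9e-08), from 7 reads in all in vehicle. Ccl12 was at 0.53 (adjusted p = 0.99) and 3.64 (adjusted p = 4.23e-06) in the same comparisons.

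Gfap averaged 185, 218, 262 and 400 CPM in vehicle, Day 1, Day 2 and Day 3, and was called at Day 2 over vehicle (0.51, adjusted p = 0.00116) and at Day 3 over vehicle (1.12, adjusted p = 1.77e-10). EYFP averaged 112, 110, 101 and 61.9 CPM over the same groups, with -0.17 at Day 2 (adjusted p = 0.982) and -0.89 at Day 3 over vehicle (adjusted p = 1.19e-05). Ifit3 averaged 4.27, 4.71, 4.73 and 9.98 CPM, and Mki67 1.67, 1.53, 2.35 and 5.14 CPM. Ccl3 was called at Day 2 over vehicle (4.02, adjusted p = 0.000397) and stood at 5.32 at Day 3, averaging 0.0489, 0.340, 0.888 and 2.19 CPM over the 4 groups. Atf3 was at 1.41 at Day 2 (adjusted p = 0.0499) and 1.54 at Day 3 over vehicle (adjusted p = 0.00265). Whether the step from Day 2 to Day 3 differed from the step before it was tested directly, and edgeR and DESeq2 called 0 genes, with 522 (3.11%) at an unadjusted p under 0.05 by edgeR. For Cxcl10 the difference of the steps was 2.83 ± 0.92 (unadjusted p = 0.00477, adjusted p = 0.999).

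The rise was also compared between the sexes. Fitted in males and in females alone, Cxcl10 was at 3.13 in males (adjusted p = 0.0148) and 4.04 in females (adjusted p = 0.057), and Gfap at 0.62 in males (adjusted p = 0.00246) and 0.59 in females (adjusted p = 0.237). The fit of males called 3 genes and that of females 0, with 752 and 713 at an unadjusted p under 0.05, and each rested on 3 libraries a day. Choroid plexus content was uneven between the sexes: Ttr was at 5.42 in males and -1.72 in females (edgeR interaction unadjusted p = 0.0165, adjusted p = 0.99). The Ttr-rich males were Day 3 libraries 3 and 6, and the Ttr-rich females Day 3 library 2 and Day 2 libraries 4 and 6. Its part in the sex comparison was not tested. The interaction of day and sex had 0 calls by edgeR and DESeq2, with 747 genes (4.46%) at an unadjusted p under 0.05 by edgeR. Of the 22 called genes, Cd14 had the smallest interaction p, with log2 fold changes of 0.47 in males and 1.13 in females (edgeR interaction adjusted p = 0.990).

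Day 3 libraries differed among themselves. Over the 20 rises, Day 3 library 1 was the highest of its group for 8 genes and library 6 for 6, while library 3 was the lowest for 8 and the highest for 0. Library 3, a male library and the shallowest at 16.6 M reads, also held the most EYFP and Glra1 of its group, 77.4 and 9.57 CPM. Among Day 2 libraries, library 4 held the least of both, 81.8 and 9.22 CPM. Both libraries were rich in Ttr, and the part of depth or choroid plexus in these values was not tested.

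**Figure D5:**
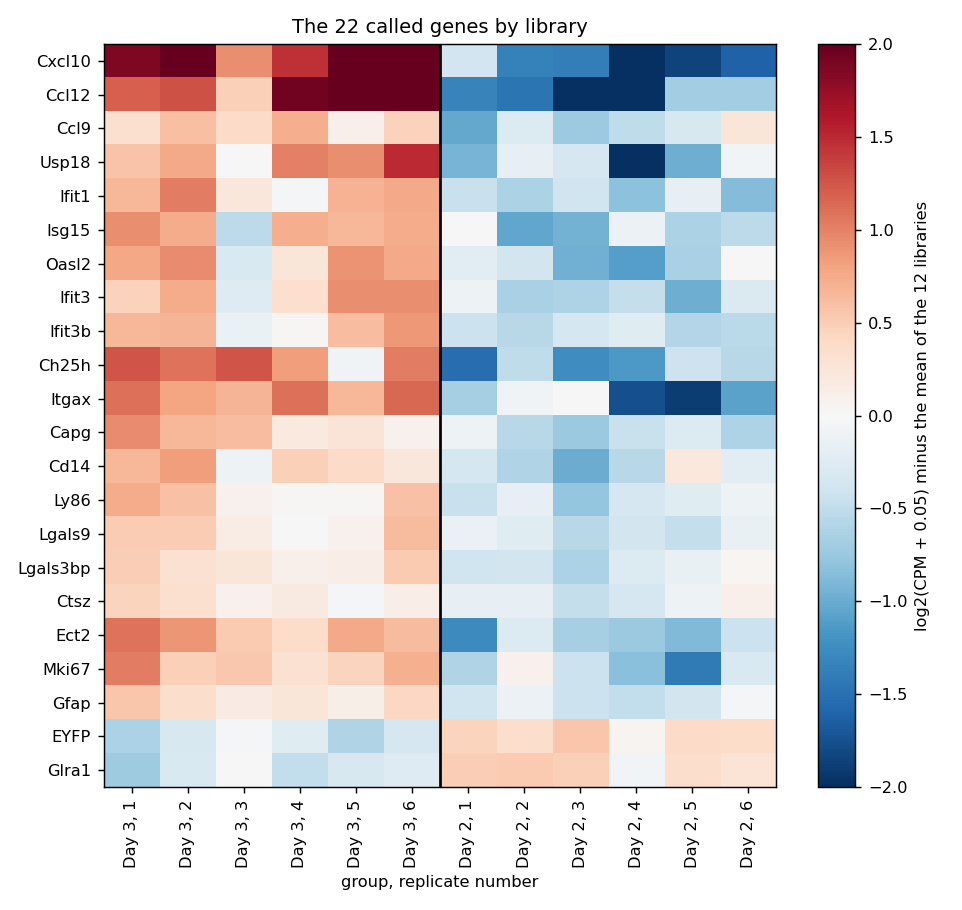
The 22 called genes (rows) in the 6 Day 3 libraries (left) and 6 Day 2 libraries (right), coloured by log2(CPM + 0.05) minus the gene's mean over the 12 libraries, with colours limited at 2. Day 3 library 3 is paler than its group for the interferon response genes, and Day 2 library 4 is pale for EYFP and Glra1.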

How the data were processed

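The authors deposited raw read counts for each gene in whole numbers, and all 24 library columns were used. The submitters' processing notes name fastp 0.23.1, STAR 2.7.9a, DESeq2 1.32.0 and the mm39 build. What program, annotation release and strand setting produced the counts is not given in the sources used here, so overlapping or near-identical genes could share reads. Of the identifiers, 52083 had a symbol, and 43 genes were tested without one. Promoter windows came from RefSeq GRCm38.p6, and no other coordinates are given because the builds differ.

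Groups came from the treatment labels. Counts were fitted with edgeR 4.0.16 in R 4.3.3 (quasi-likelihood, two-sided; group and sex over 24 libraries; trimmed mean of M values; filterByExpr with minimum count 10 and minimum total 15), with Benjamini-Hochberg adjustment over 16767 genes and calls at an adjusted p under 0.05. Adjusted p-values are edgeR's unless another tool is named. Libraries of a group varied with a biological coefficient of 8.51%. The edgeR steps were tested on simulated counts. Alternatives were other scaling and filters, DESeq2 1.42.0, limma voom 3.58.1, other models and library subsets. No library pair within a day agreed within sampling noise (chi-square over degrees of freedom 3.71 to 12.6 over 30 pairs). Xist and Ddx3y fitted every sex label.

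The comparison and the 44 gene lists (604 genes, 558 tested) were chosen with earlier results of these data known. Named genes were the called genes with a symbol (up to 15 each way at a mean log2 CPM of at least 0, and the 10 of smallest p), up to 6 called members of each list or else its 2 of smallest p, and a fixed set that includes Gfap, Cxcl10, Ccl3, Ccl4, Mki67, Isg15, EYFP, Glra1, Egr3, Fos, Arc, Bdnf, Atf3, Aif1, Trem2, Aqp4, Ttr, Reln, Calb1, Snap25 and Sst. Ect2 falls outside this rule and is described because every called gene is; genes close to the threshold, Mmp15 and some list members were also added after their values were seen.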

Additional observations from a re-analysis of the deposited data

Results flagged for a closer look

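Within each day, the highest and lowest library of 38 genes was compared with the rest of its group by Dixon's criterion, 76 groups in all, and 4 stood apart; chance gives about 1 in 20 groups. Isg15, an interferon response gene, was at 1.44 CPM in Day 3 library 3, while the other 5 Day 3 libraries held 3.36 to 4.02 CPM. Ccl4, a microglial chemokine, was at 0.74 CPM in Day 3 library 5, with the others at up to 1.58 CPM. Snap25, a protein of synaptic vesicle release, was at 2100 CPM in Day 3 library 2, with the others at 1900 to 1940 CPM. Snap25 was also high in Day 2 library 1, at 2150 CPM, with the others at 1880 to 1970 CPM.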

How the results depend on the processing

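The count of called genes was 22, with 20 higher and 2 lower. It was 79 (60 higher, 19 lower) without the filter on low counts, 36 (34 higher) with DESeq2, 8 (6 higher) with the sample number as a factor and 6 (6 higher, 0 lower) against a 1.2-fold change. It was 0 (0 higher, 0 lower) in females, 3 (2 higher, 1 lower) in males and 6 (4 higher) without the 8 Ttr-rich libraries. Each of these subsets held fewer libraries of both days. Leaving out 1 Day 3 or Day 2 library gave 10 to 26 genes, 9 to 24 higher and 1 to 2 lower. The difference of the steps had 33 genes without the filter, and 0 with each Day 3 or Day 2 library left out (Day 1 libraries were not left out); the interaction of day and sex had 109 without the filter. Other scaling factors, the 1 CPM filter, limma voom, no sex term and only the 12 libraries gave 17 to 25 genes. The fit of only the 12 libraries called 19, 16 of them from the 22. Isg15, Usp18, Lgals9, Cd14, Ccl9 and Ctsz were not called there. Ctsz was called in 3 of its 13 alternative settings, apart from the fits that left out 1 library. All 22 genes kept their sign wherever a setting gave a value (19 of them under the 1 CPM filter), and 9 were called in all 12 fits that left out a library. With the sample number as a factor, Cxcl10, Ccl12, Ifit3, Capg, Gfap, EYFP and Glra1 remained called; the titles do not say what the number marks. The causes of these changes were not tested. No paired analysis was possible because the labels give no replicate numbers that match single Day 3 libraries with single Day 2 libraries; the sample number, which some libraries of both days share, was fitted as the factor above. Depth limits low genes such as Usp18, Itgax and Ect2, with 55, 47 and 49 reads over the Day 2 libraries.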
